A study of Homo sapiens with 12 samples.

Results

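Vimentin, the nuclear lamins and the other non-keratin intermediate filaments were followed as 10 genes: VIM, NES, SYNM, DES, GFAP, NEFL, NEFM, LMNA, LMNB1 and LMNB2. They were found by gene symbol among the 48114 genes listed in each of the deposited tables, and every one matched a single gene. RNA carrying a polyA tail had been sequenced from 12 libraries of 2 cell lines derived from pancreatic ductal adenocarcinoma (PDAC), PANC-1 and HPAF-II, to ask which genes depend on the RNA-binding proteins QKI and RBFOX2, both regulators of splicing. PANC-1 cells had received a control siRNA (siCtrl), siRNA against QKI (siQKI) or siRNA against RBFOX2 (siRBFOX2) and were collected after 48 h, with 3 libraries per group. The labels give 40 nM for the targeting siRNAs. HPAF-II cells had received siCtrl only, again in 3 libraries. The HPAF-II condition comes from the sample labels, since the methods name PANC-1 alone for these libraries. The study's reagent list gives the control and QKI siRNAs as commercial pools of several sequences, and does not list that against RBFOX2. The knockdown was transient, each condition was studied in a single line, and the labels describe the replicates as biological.

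Intermediate filament proteins share a coiled rod and assemble into rope-like fibers. Type III proteins (vimentin, desmin, GFAP) form filaments by themselves in mesenchymal, muscle and glial cells, whereas nestin and synemin are longer partners that co-assemble with vimentin or desmin, and NEFL and NEFM are neurofilament subunits of nerve cells. Lamins, the type V proteins, build the meshwork under the inner nuclear membrane: the B-type lamins are made in nearly all cells, while lamins A and C, spliced from the same LMNA transcript, increase in differentiated and stiff tissues. Carcinoma cells that turn mesenchymal typically gain vimentin beside, or in place of, keratins.

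The end of the lamin reading frame is shown because the prelamin processing enzymes, whose values are given later, act on the residues it encodes. Each sequence below holds the last 30 coding bases, stop codon included, as given by the GENCODE transcripts on GRCh38. The capitals mark the 4 codons before the stop that begin with cysteine, the CaaX box through which prelamin A and the B-type lamins are farnesylated. LMNA itself lies at chr1:156082573-156140081.
LMNA-206, lamin A, plus strand, chr1:156138755-156139106 across a splice junction: cagagcccccagaacTGCAGCATCATGtaa
LMNB1-201, lamin B1, plus strand, chr5:126836235-126836264: gcatccaatagaagcTGTGCAATTATGtaa
LMNB2-201, lamin B2, minus strand, chr19:2430911-2430940: accacctcaagaggcTGCTACGTGATGtga
Of 8 coding LMNA transcripts, 4 had the cysteine codon at that position and 4 did not. The deposited values are gene totals, so lamin A and lamin C could not be told apart in what follows.

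Values below are normalized counts, which are gene counts divided by a size factor of each library, and their SD is over 3 libraries. PANC-1 size factors spanned 0.877 to 1.15 and those of HPAF-II 0.810 to 1.09. Across genes, log2 values of replicates correlated at r = 0.965 to 0.973 (PANC-1) and at 0.921 or more (HPAF-II). QKI fell from 25533 ± 869 in siCtrl to 5034 ± 412 in siQKI (log2 fold change -2.34 ± 0.06, SE; limma adjusted p = 9.15e-13). RBFOX2 fell from 15429 ± 76.8 to 2095 ± 352 in siRBFOX2 (-2.89 ± 0.09; limma adjusted p = 4.7e-11). It was also lower in siQKI, at 12629, 12778 and 12520 against 15355, 15508 and 15424 in siCtrl. Whether that difference was called changed in 7 of 18 refits. The siQKI libraries thus differed from siCtrl in both targets. KRT8, KRT18 and KRT19, keratins of ductal epithelium, were abundant in both lines, and of 3 leukocyte genes PTPRC and CD3E were at 0 in the PANC-1 siCtrl libraries. The third, CD68, was at 158 ± 12.6 per 1000000 there and fell in both knockdowns (-0.49 in siQKI and -0.33 in siRBFOX2 on the log2 scale; limma adjusted p = 1.14e-06 and 0.000101). Summed over 7 fibroblast genes, the level was 12.7 to 14.1 per 1000000 in siCtrl, 26.7 to 30.03 in siQKI and 16.03 to 23.7 in siRBFOX2, with DCN at 0 in all 3 groups and COL1A2 and LUM at 0 in siCtrl. Of the 4 genes of that list that were tested, COL1A1 (0.99), PDGFRB (1.42) and ACTA2 (0.93 on the log2 scale) rose in siQKI, and COL1A1 and PDGFRB rose in siRBFOX2. Whether these shifts had a part in the results below was not tested, and in bulk RNA a different share of cells and a different amount of RNA per cell cannot be told apart.

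The abundance of the members differed by orders of magnitude in PANC-1 cells. To compare genes, values were rescaled to a total of 1000000 per library and divided by exon length. Per kilobase, VIM was highest in siCtrl cells at 2902 ± 52.4, followed by LMNA at 185 ± 1.21, LMNB1 at 50.6 ± 1.19, LMNB2 at 21.9 ± 0.242, NES at 13.3 ± 0.419 and SYNM at 8.501 ± 0.480. Neighbours among these 6 genes were farther apart than their SDs. GFAP (0.00686 ± 0.00935) and DES (0.00628 ± 0.0109) followed and could not be ordered. NEFL and NEFM were listed at 0 in all 12 libraries. VIM ranked 13 among all genes, by count, in each of the 9 PANC-1 libraries, and took between 0.507% and 0.55% of a library.

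Depletion of either RNA-binding protein moved the expressed members by modest amounts, and in different combinations. After QKI knockdown VIM fell by 8.87%, SYNM fell by 12.6% and LMNA fell by 11.8%. After RBFOX2 knockdown NES fell by 17.99%, LMNA fell by 17.1% and LMNB2 fell by 13.5%, while SYNM rose by 14.2%. Thus 3 of the 8 members that passed the filter on low values (a mean of at least 10) were past the threshold in siQKI, all lower, where 33.0% of the 22544 genes tested were called, 18.1% lower and 14.9% higher. In siRBFOX2, 4 of 8 were called, 3 lower and 1 higher, beside 26.5% of all genes (14.5% lower and 12.0% higher). The libraries of the groups did not overlap for 5 members in siQKI, beside 44.7% of all genes, and for 6 in siRBFOX2, beside 37.9%. No called member changed by as much as 1.5-fold. The median log2 fold change of the 8 was -0.11 in siQKI and -0.06 in siRBFOX2, beside 0.03 and 0.01 over all genes tested. Both comparisons use the same siCtrl libraries, and all folds are on the log2(normalized count + 1) scale.

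The scaling of the libraries mattered for the siQKI calls. With upper-quartile rescaling of the libraries, calls over all genes shifted from 45.2% to 58% higher, and the called members became 1 higher (NES) and 2 lower (SYNM and LMNA). With libraries rescaled to equal totals, 57.7% of all calls were higher and LMNA was the 1 member past the threshold. The 4 siRBFOX2 calls were past the threshold under both rescalings, although equal totals shifted all calls from 45.3% to 60.1% higher.

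**Figure D1:**
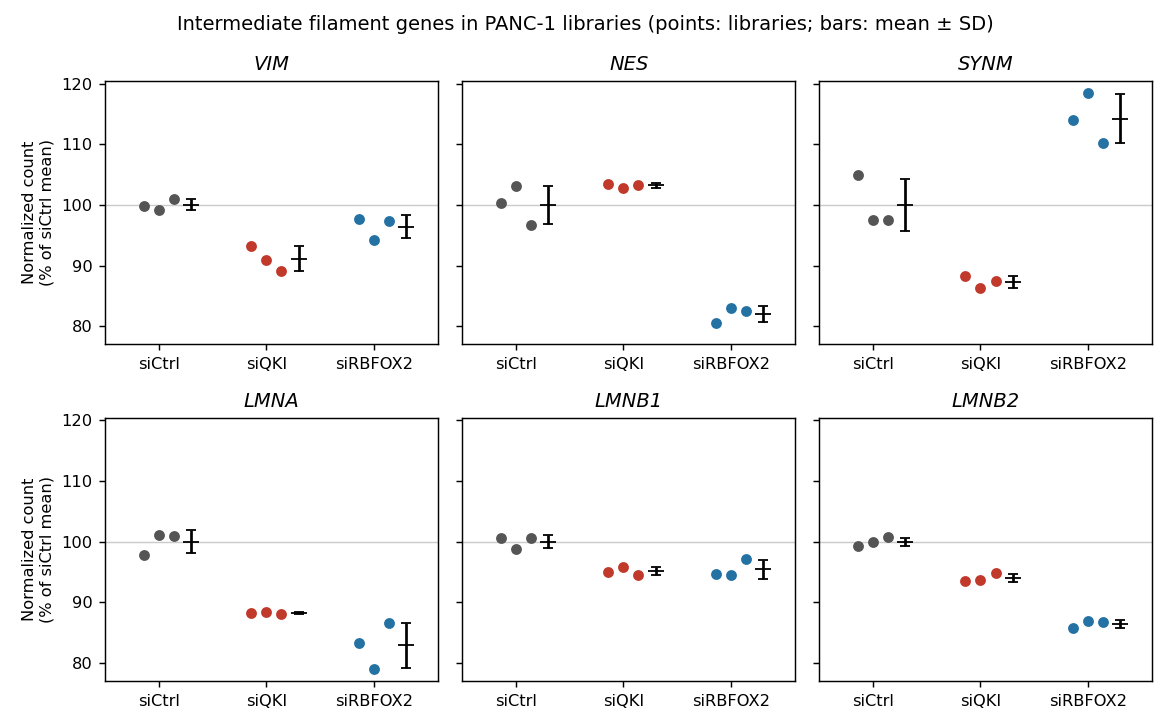
Normalized counts of the 6 expressed members in the 9 PANC-1 libraries, as a percentage of the siCtrl mean of each gene (points, 1 per library; bars, mean ± SD of 3). VIM and LMNA lie below siCtrl in siQKI, NES, LMNA and LMNB2 lie lowest in siRBFOX2, and SYNM lies below siCtrl in siQKI and above it in siRBFOX2.

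VIM encodes vimentin and lies at chr10:17228241-17237593 on the plus strand. Its normalized counts were 1863230, 1849480 and 1883240 in siCtrl, 1739040, 1697510 and 1663200 in siQKI, and 1822670, 1756990 and 1815410 in siRBFOX2. The lowest siCtrl library lay above all libraries of both knockdowns. VIM in siRBFOX2 thus lay between the other groups. QKI knockdown lowered VIM by 0.13 ± 0.04 (SE) on the log2 scale (limma adjusted p = 0.0152). The call did not hold after upper-quartile rescaling (-0.07, limma adjusted p = 0.153), after rescaling to equal totals (-0.07, limma adjusted p = 0.118) or without siCtrl replicate 3 (limma adjusted p = 0.0524), siQKI replicate 2 (0.0585) or siQKI replicate 3 (0.0872). In siRBFOX2 the difference was -0.05, with a 95% interval of -0.14 to 0.03 (limma adjusted p = 0.372), and its sign turned with equal totals (0.0037). The effects of the 2 knockdowns differed by -0.08, with an interval of -0.16 to 0.00 (limma adjusted p = 0.17). The antisense gene VIM-AS1 overlaps VIM by 1745 bases, but its siCtrl mean was 0.229% of that of VIM.

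NES encodes nestin, a long filament partner first known from neural progenitors, and lies at chr1:156668763-156677407 on the minus strand. Counts were 25432, 26141 and 24527 in siCtrl, 26258, 26076 and 26208 in siQKI, and 20427, 21060 and 20926 in siRBFOX2. All siRBFOX2 libraries were below all others, whereas siQKI and siCtrl overlapped. RBFOX2 knockdown lowered NES by 0.29 ± 0.04 on the log2 scale (limma adjusted p = 6.79e-05). In siQKI the difference was 0.05, with an interval of -0.04 to 0.13 (limma adjusted p = 0.416), and it passed the threshold only with upper-quartile rescaling (0.11, limma adjusted p = 0.049). The direct comparison of siQKI with siRBFOX2 gave 0.33 ± 0.04 (limma adjusted p = 1.98e-05), past the threshold in each of the 18 refits tried.

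SYNM encodes synemin, a filament partner that also binds cytoskeletal linkers, and lies at chr15:99098217-99135593 on the plus strand. It gave 23986, 22287 and 22308 counts in siCtrl, 20175, 19727 and 20006 in siQKI, and 26066, 27079 and 25208 in siRBFOX2. The 3 groups did not overlap, with siQKI lowest and siRBFOX2 highest. SYNM fell by 0.19 ± 0.04 on the log2 scale in siQKI (limma adjusted p = 0.00265) and rose by 0.19 ± 0.04 in siRBFOX2 (limma adjusted p = 0.00392). With equal library totals the fall in siQKI was 0.13 and missed the threshold (limma adjusted p = 0.0548), while the rise in siRBFOX2 was 0.25 (0.00179). SYNM thus differed between the knockdowns by -0.39 ± 0.04 (limma adjusted p = 1.38e-05). In the same direct comparison 21.5% of all genes were called, 9.93% higher in siQKI and 11.6% lower, and 3 of 8 members were: NES and LMNB2 higher, SYNM lower. The 2 knockdowns did not overlap for 5 of 8 members, beside 35.2% of all genes.

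DES (desmin of muscle, chr2:219418375-219426737) and GFAP (of glia, chr17:44903046-44915506) were at the limit of detection. DES was listed at 0 in 5 of the 9 PANC-1 libraries and was at most 35.6 in the others. GFAP was at 0 in 3 libraries and was at most 52.3 in the others. Within each group at least 1 library was at or near 0 while another was not, so neither gene gives a usable fold change, and neither was called in any comparison (limma adjusted p of 0.541 or more). Together with NEFL and NEFM at 0, the muscle, glial and neuronal genes among the members had little or no RNA in these cells. Outside the members, SYNC and PRPH had siCtrl means of 558 and 222.

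**Figure D2:**
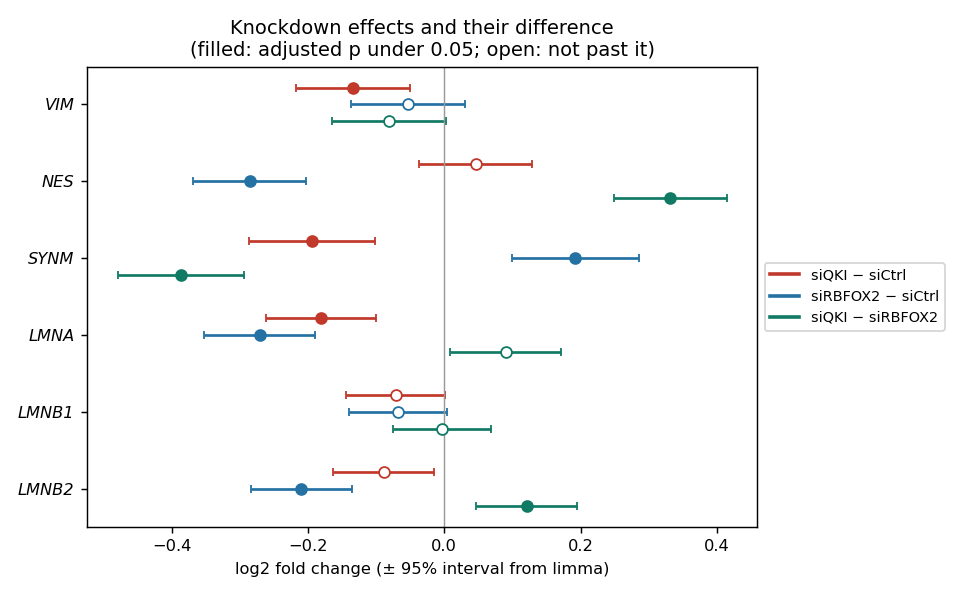
Log2 fold changes of the 6 expressed members in the 3 PANC-1 comparisons (points; lines, 95% interval from limma; filled, adjusted p under 0.05). Against siCtrl, SYNM lies on opposite sides of 0 in the 2 knockdowns, NES is displaced in siRBFOX2 alone, and both LMNA values lie below 0. Between the knockdowns NES, LMNA and LMNB2 lie above 0, and of these NES and LMNB2 are filled and LMNA is open.

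LMNA carried most of the lamin RNA. Its counts were 262255, 271258 and 270764 in siCtrl, 236445, 236977 and 235955 in siQKI, and 223100, 211854 and 231949 in siRBFOX2. No library of either knockdown reached the siCtrl range, and the 2 knockdowns did not overlap each other. LMNA fell by 0.18 ± 0.04 on the log2 scale in siQKI (limma adjusted p = 0.00166) and by 0.27 ± 0.04 in siRBFOX2 (8.91e-05), and both were past the threshold in each of 18 refits. The difference between the knockdowns was 0.09, with an interval of 0.01 to 0.17 (limma adjusted p = 0.114). It passed the threshold with upper-quartile rescaling (0.12, limma adjusted p = 0.0255) and without siRBFOX2 replicate 3 (0.12, limma adjusted p = 0.0386).

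The B-type lamins moved less. LMNB1 (chr5:126776620-126837020) gave 52017, 51002 and 51968 counts in siCtrl, 49122, 49523 and 48864 in siQKI, and 48914, 48791 and 50197 in siRBFOX2. Although both knockdowns lay below siCtrl, the log2 differences of -0.07 (interval -0.14 to 0.00) and -0.07 (-0.14 to 0.00) did not pass the threshold (limma adjusted p = 0.126 and 0.168). With equal totals they were -0.01 in both. LMNB1 did not differ detectably between the knockdowns (-0.00, interval -0.08 to 0.07; limma adjusted p = 0.96).

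LMNB2 (chr19:2428166-2456959, minus strand) gave 35003, 35212 and 35483 counts in siCtrl, 32954, 33003 and 33422 in siQKI, and 30196, 30619 and 30584 in siRBFOX2. The 3 groups were fully separate. It fell by 0.21 ± 0.03 on the log2 scale in siRBFOX2 (limma adjusted p = 0.000349), past the threshold in each of 18 refits. In siQKI the difference of -0.09 (interval -0.16 to -0.02) was not called (limma adjusted p = 0.0617), except when genes with a mean under 50 were left out (limma adjusted p = 0.0457). The knockdowns differed by 0.12 ± 0.03 (limma adjusted p = 0.02), a call that was lost without the mean-variance trend (limma adjusted p = 0.06) and without siQKI replicate 2 (0.0563), siQKI replicate 3 (0.0759) or siRBFOX2 replicate 1 (0.0656). Genes of the cell cycle moved too: summed over 7 proliferation genes, the level was 1284 to 1308 per 1000000 in siCtrl, 1223 to 1282 in siQKI and 1122 to 1160 in siRBFOX2, and a part of this in the lamin results was not tested. Of those 7 genes, 4 fell and CDKN1A (p21) rose in siQKI, but 1 fell under either rescaling, and 6 fell in siRBFOX2. Over all genes tested, 18.1% were called lower in siQKI and 14.5% in siRBFOX2. PCNA, the DNA clamp of replication, fell by 0.35 ± 0.03 on the log2 scale in siRBFOX2 (limma adjusted p = 1.88e-06).

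Ratios within a library do not depend on its size factor. The ratio of LMNA to LMNB1 plus LMNB2 was 3.01, 3.15 and 3.10 in siCtrl, 2.88, 2.87 and 2.87 in siQKI, and 2.82, 2.67 and 2.87 in siRBFOX2. Both knockdowns lay wholly below siCtrl, at log2 differences of -0.10 and -0.15. Each had an exact two-sided permutation p of 0.1, the smallest that 3 against 3 libraries allow, and 0.15 after adjustment over 6 comparisons. The 2 knockdowns overlapped each other (0.04, exact permutation p = 0.2).

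The ratio of VIM to KRT8, KRT18 and KRT19 was 2.17, 2.03 and 2.15 in siCtrl, 1.94, 2.04 and 1.98 in siQKI, and 2.39, 2.42 and 2.57 in siRBFOX2. The siRBFOX2 libraries were above siCtrl by 0.22 on the log2 scale (exact permutation p = 0.1, adjusted p = 0.15), whereas siQKI overlapped siCtrl (-0.09, exact permutation p = 0.2). KRT18, KRT8 and KRT19 fell by 0.35, 0.23 and 0.23 on the log2 scale in siRBFOX2 (limma adjusted p = 0.000128, 0.000778 and 0.000595). In siQKI only KRT18 of these 3 was called (-0.20, limma adjusted p = 0.00716).

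**Figure D3:**
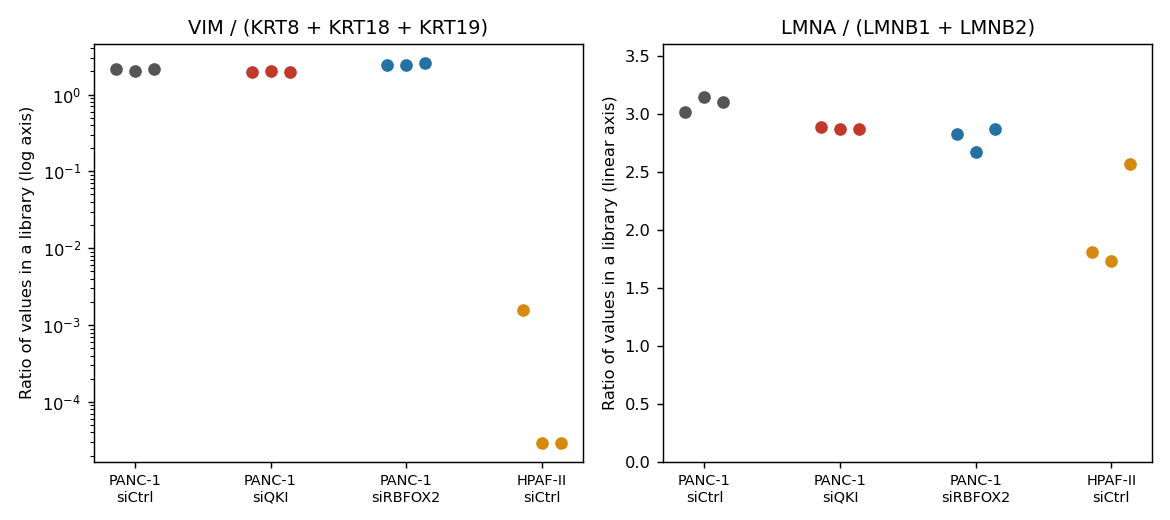
Ratios within each library of VIM to KRT8 + KRT18 + KRT19 (left, log axis) and of LMNA to LMNB1 + LMNB2 (right, linear axis from 0), with 1 point per library. The VIM ratio is near 2 in all PANC-1 libraries and under 0.002 in HPAF-II, and the lamin ratio is lower in both knockdowns and in HPAF-II than in PANC-1 siCtrl.

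Partners of the lamins at the nuclear envelope changed in both directions. Of 14 genes, 3 rose and 5 fell in siQKI, and 2 rose and 6 fell in siRBFOX2. Called shares over all genes tested were 14.9% higher and 18.1% lower in siQKI, and 12.0% and 14.5% in siRBFOX2. With upper-quartile rescaling the siQKI split became 4 higher and 4 lower. The LINC complex couples the lamina to the cytoskeleton through SUN proteins and nesprins. SYNE3 (nesprin-3, which reaches vimentin through plectin) fell from 1266 ± 69.7 counts by 0.82 ± 0.12 on the log2 scale in siQKI and by 0.64 ± 0.12 in siRBFOX2 (limma adjusted p = 5.61e-05 and 0.000701). SYNE2 (nesprin-2) rose by 0.52 ± 0.09 and 0.30 ± 0.09 (0.000415 and 0.0231), the second lost in 5 alternatives. SUN1 rose in siQKI by 0.31 ± 0.03 (limma adjusted p = 3.04e-06) and differed between the knockdowns by 0.39 ± 0.03 (9.31e-07). SUN2 fell in siRBFOX2 by 0.15 ± 0.05 (limma adjusted p = 0.0362).

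The LEM-domain proteins bind chromatin through BANF1. BANF1 itself fell by 0.27 ± 0.04 on the log2 scale in siQKI and by 0.26 ± 0.04 in siRBFOX2 (limma adjusted p = 3.46e-05 and 8.36e-05). EMD rose by 0.21 ± 0.04 and 0.23 ± 0.04 (0.00043 and 0.000334), and LEMD2 fell by 0.21 ± 0.04 and 0.20 ± 0.04 (0.00142 and 0.00258). LEMD3 fell in siQKI by 0.49 ± 0.09 on the log2 scale and differed from siRBFOX2 by -0.46 ± 0.09 (limma adjusted p = 0.00055 and 0.00152). TMPO, which encodes the lamin-binding LAP2 proteins, fell in siRBFOX2 by 0.21 ± 0.04 (limma adjusted p = 0.000902) and was not called in siQKI (0.01, limma adjusted p = 0.889). It was thus 0.22 ± 0.04 higher in siQKI than in siRBFOX2 (limma adjusted p = 0.00075). TOR1A, the torsin ATPase of the envelope, fell by 0.17 ± 0.05 in siQKI and by 0.30 ± 0.05 in siRBFOX2 (limma adjusted p = 0.0125 and 0.000203). LBR, the lamin B receptor, was not called in any comparison.

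The enzymes that mature the CaaX ends printed above showed 3 of 5 genes lower in each knockdown and none higher. Over all genes tested, 18.1% were called lower in siQKI and 14.5% in siRBFOX2. ICMT, which methylates the farnesylated cysteine, gave 73750, 74752 and 73895 counts in siCtrl, 51007, 50974 and 48933 in siQKI, and 66178, 64209 and 64626 in siRBFOX2. The 3 groups were separate, and ICMT fell by 0.56 ± 0.03 on the log2 scale in siQKI and by 0.19 ± 0.03 in siRBFOX2 (limma adjusted p = 1.53e-08 and 0.000795). ZMPSTE24, the protease that releases mature lamin A, fell by 0.27 ± 0.05 and 0.42 ± 0.05 (0.000486 and 1.39e-05). RCE1, which removes the last residues of the box, fell by 0.17 ± 0.06 and 0.23 ± 0.06 (0.032 and 0.00653). The RCE1 row is shared with a neighbouring gene, and its siQKI call was lost in 7 of 18 refits, both rescalings included (limma adjusted p up to 0.166), which leaves 2 of 5 genes called in siQKI. FNTA and FNTB, the farnesyltransferase subunits, were not called.

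Kinases that act on filament disassembly were lower wherever they were called, 5 of 8 in siQKI and 6 of 8 in siRBFOX2. Over all genes tested, 18.1% were called lower in siQKI and 14.5% in siRBFOX2. Under either rescaling 5 of the kinases were called in siRBFOX2. PAK1 fell by 0.59 ± 0.05 and 0.34 ± 0.05 on the log2 scale (limma adjusted p = 1.36e-07 and 6.04e-05). PAK2 fell by 0.48 ± 0.04 in siQKI and by 0.15 ± 0.04 in siRBFOX2 (8.75e-07 and 0.0212). PAK1 and PAK2 are kinases that phosphorylate vimentin. PRKCA fell by 0.49 ± 0.04 in siQKI and by 0.29 ± 0.04 in siRBFOX2 (limma adjusted p = 5.04e-07 and 0.000151). The mitotic kinase AURKB fell by 0.44 ± 0.05 in siQKI and by 0.41 ± 0.05 in siRBFOX2 (limma adjusted p = 3.31e-06 and 1.16e-05). CDK1, another mitotic kinase, fell by 0.32 ± 0.06 in siRBFOX2 (limma adjusted p = 0.000665). In siQKI its difference of -0.14 was not called (0.0675).

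Of the 7 cytolinker genes, EPPK1, EVPL and PPL rose and MACF1 fell in each knockdown, whereas PLEC, DST and DSP were not called. Over all genes tested, 33.0% were called in siQKI and 26.5% in siRBFOX2. EVPL and PPL encode envoplakin and periplakin of the plakin family. EVPL rose by 0.51 ± 0.04 on the log2 scale in siQKI and 0.34 ± 0.04 in siRBFOX2 (limma adjusted p = 4.14e-07 and 4.16e-05). PPL rose by 0.48 ± 0.04 in siQKI (limma adjusted p = 8.77e-07). EPPK1, epiplakin, rose by 0.66 ± 0.09 and 0.27 ± 0.09 (6.02e-05 and 0.0463), and the siRBFOX2 call was lost in 10 alternatives. MACF1, which also links actin and microtubules, fell by 0.34 ± 0.05 in siRBFOX2 (limma adjusted p = 5.35e-05).

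**Figure D4:**
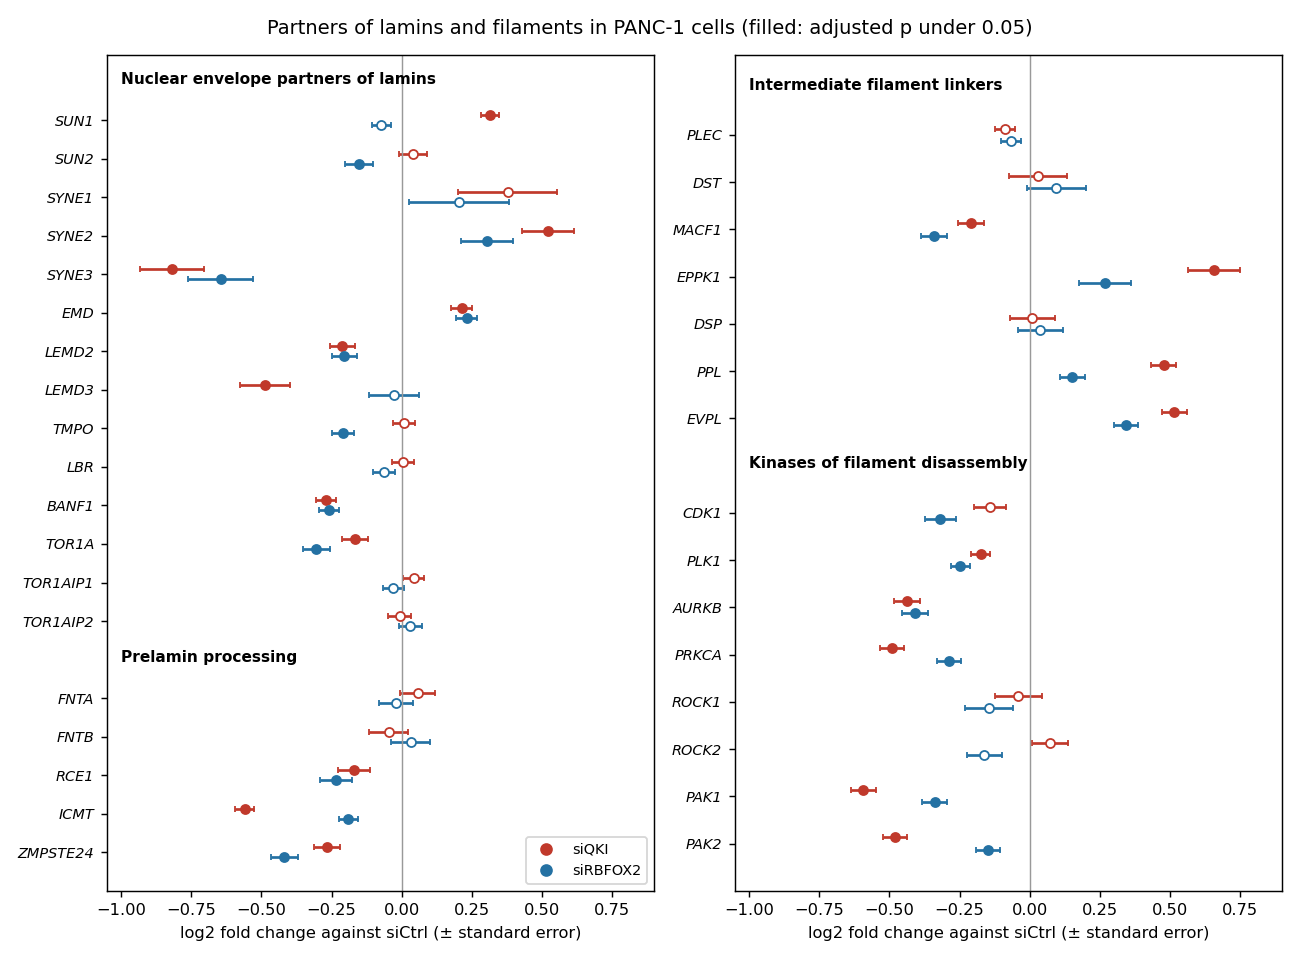
Log2 fold changes against siCtrl of the genes of 4 lists in siQKI (red) and siRBFOX2 (blue), with bars of 1 standard error; filled points have an adjusted p under 0.05. The called kinases and prelamin enzymes lie left of 0 in both knockdowns, and called genes of the envelope and linker lists lie on both sides.

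Among 6 further filament genes outside the keratins, 1 was called in each knockdown, beside 33.0% (siQKI) and 26.5% (siRBFOX2) of all genes tested. BFSP1, a beaded filament protein of the lens, rose in siQKI from 579 ± 42.1 counts by 0.64 ± 0.14 on the log2 scale (limma adjusted p = 0.00199). SYNC (syncoilin of muscle) rose in siRBFOX2 from 558 ± 105 by 0.54 ± 0.16 (limma adjusted p = 0.0245), a call lost in 5 alternatives. Of 10 tested genes of epithelial and mesenchymal state, 2 rose and 3 fell in siQKI, and 2 rose and 1 fell in siRBFOX2. The shares over all genes were again 33.0% and 26.5%. CDH1, E-cadherin, rose by 1.39 ± 0.11 on the log2 scale in siQKI and 0.53 ± 0.11 in siRBFOX2 (limma adjusted p = 1.54e-07 and 0.00177). SNAI1, a repressor of CDH1, fell by 0.52 ± 0.08 and 0.86 ± 0.08 (7.39e-05 and 1.22e-06), and SNAI2 fell by 1.38 ± 0.38 in siQKI (0.0107). ZEB1 fell by 0.28 ± 0.06 in siQKI (limma adjusted p = 0.00249) and was not called in siRBFOX2 (0.02, limma adjusted p = 0.888). Between the knockdowns it differed by -0.29 ± 0.06 (limma adjusted p = 0.00277). CDH2, N-cadherin of mesenchymal cells, rose as well, by 0.26 ± 0.05 in siQKI and 0.22 ± 0.05 in siRBFOX2 (limma adjusted p = 0.000513 and 0.00319).

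The 2 cell lines differed much more than the knockdowns did. Their tables had been normalized apart, so levels rescaled to 1000000 per library were compared and no test was run. Of the 8 members, 5 were at least 2-fold apart: VIM, NES and SYNM were lower and DES and GFAP higher in HPAF-II. DES passed the filter on low values through HPAF-II alone and SYNM through PANC-1 alone, which sets their side, and the DES libraries of the lines overlapped. Over the 24673 genes compared, 52.4% were at least 2-fold apart, 25.2% lower and 27.2% higher in HPAF-II. The lines did not overlap for 6 of 8 members, beside 63.7% of all genes. The lamins all lay within 2-fold.

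VIM was at 5499, 5312 and 5454 per 1000000 in PANC-1 siCtrl, and at 15.2, 0.283 and 0.3003 in HPAF-II siCtrl. Replicate 1 of HPAF-II stood apart from the other two. The ratio of means was 1032-fold, or -10.0 on the log2 scale, and -14.1 without that replicate, the lowest of values that ranged up to -9.45. Other genes lower in HPAF-II did not share 1 pattern there. In that library NES was the lowest of the 3, and CDH2, at 39.0 ± 1.61 in PANC-1, was listed at 0. SYNM was the highest of the 3 (0.0221 against 0.0120 and 0.00646), near the floor. The log2 ratio of PRPH, also low, moved from -3.12 to -4.06 without that library. Where the VIM reads of that library came from was not tested. VIM ranked 7250 among all genes there and 15823 and 15895 in the other HPAF-II libraries, against 13 in PANC-1.

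NES was at 73.7 ± 2.33 per 1000000 in PANC-1 and at 0.322, 0.610 and 0.923 in HPAF-II, 119-fold apart. SYNM was at 66.5 ± 3.75 in PANC-1 and at 0.0221, 0.0120 and 0.00646 in HPAF-II, where it rests on 5, 3 and 2 counting steps, so no fold is given. DES reached 0.485 in 1 HPAF-II library and was at 0 in another, overlapping PANC-1. GFAP was at 0.882, 0.690 and 0.539 in HPAF-II, above all PANC-1 siCtrl libraries, but it overlaps the CCDC103 and FAM187A locus by 2345 bases. That locus had a mean of 1076 counts in HPAF-II, where GFAP had 199, and of 780 in PANC-1 siCtrl, where GFAP had 17.8. Reads could not be assigned between them here, so that the GFAP level is uncertain.

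**Figure D5:**
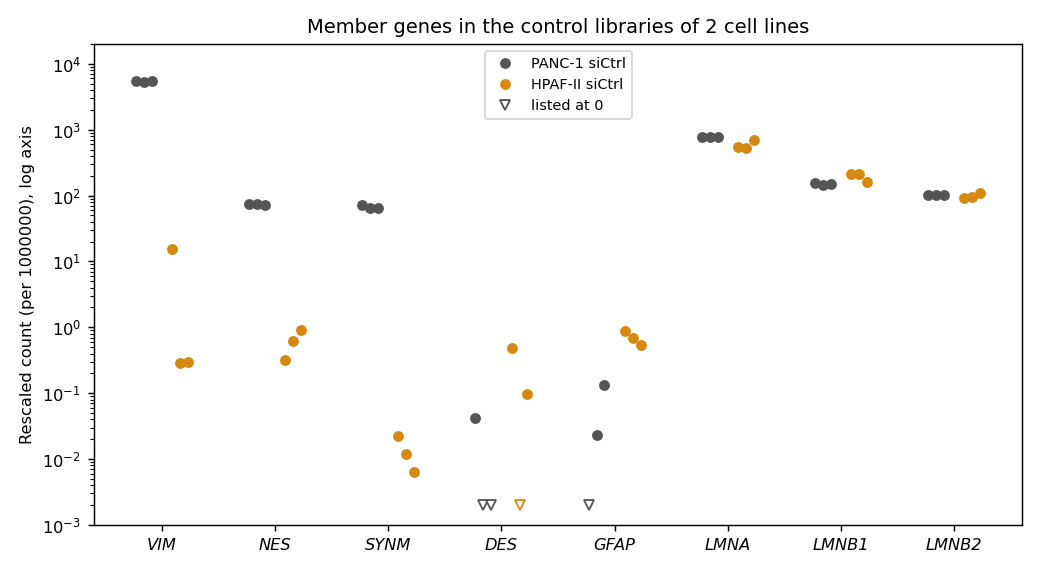
Levels of the 8 detected members per 1000000 of each library, on a log axis, in the siCtrl libraries of PANC-1 (grey) and HPAF-II (orange), with open triangles for values listed at 0. VIM, NES and SYNM are separated by orders of magnitude, with 1 HPAF-II library higher for VIM, and the 3 lamins lie at like levels in both lines.

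LMNA was at 774, 779 and 784 per 1000000 in PANC-1 and at 554, 533 and 700 in HPAF-II, where no library reached the PANC-1 range. LMNB1 was higher in HPAF-II, at 215, 214 and 163 against 154, 146 and 151. LMNB2 overlapped, at 98.6 ± 9.52 in HPAF-II and 102 ± 1.13 in PANC-1. The ratio of LMNA to LMNB1 plus LMNB2 was 1.81, 1.73 and 2.57 in HPAF-II, below all PANC-1 libraries. Replicate 3 held the highest LMNA and the lowest LMNB1 of the HPAF-II libraries. Per kilobase, the order in HPAF-II was LMNA (142 ± 21.6), LMNB1 (66.4 ± 10.0) and LMNB2 (21.1 ± 2.04), ahead of VIM at 8.13, 0.152 and 0.161. NES (0.111 ± 0.0541), GFAP (0.0940 ± 0.0230) and DES (0.0863 ± 0.114) followed and were not separated from VIM or from each other beyond their spread. SYNM was last at 0.00173 ± 0.00101.

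The other filament and envelope genes gave context to this contrast. All 4 keratins were at least 2-fold higher in HPAF-II, led by KRT7 (208-fold), with KRT19 (5.30-fold) and KRT8 (4.47-fold). The ratio of VIM to KRT8, KRT18 and KRT19 was accordingly 0.00158, 2.95e-05 and 2.94e-05 in HPAF-II. Of 10 genes of epithelial and mesenchymal state, 5 were at least 2-fold higher and 5 at least 2-fold lower in HPAF-II. Over all genes compared, 27.2% were higher and 25.2% lower by that measure. CDH1 was 68.4-fold higher, and ESRP1, an epithelial splicing regulator, was 307-fold higher, and GATA6, a factor of endodermal identity, was 34.3-fold higher. SNAI2 was 3.05-fold higher too, whereas ZEB1 was 26.3-fold and SNAI1 3.94-fold lower. Among the linkers, epiplakin (EPPK1) was 6.05-fold higher, desmoplakin (DSP) 4.08-fold and envoplakin (EVPL) 2.89-fold. At the nuclear envelope, SYNE1 (nesprin-1) was 15.4-fold and LBR 3.53-fold higher in HPAF-II, whereas SYNE3 was 4.05-fold lower. FNTA was 4.02-fold higher and ICMT 2.15-fold lower, and among the kinases PAK1 was 2.54-fold higher and PRKCA 2.80-fold lower. Peripherin (PRPH), another type III protein, was lower in HPAF-II (log2 ratio -3.12, and -4.06 without HPAF-II replicate 1), at a low level in both lines. QKI itself was 5.14-fold lower in HPAF-II, and RBFOX2 lay within 2-fold. The proliferation genes were all within 2-fold of PANC-1, with sums of 1248 to 1485 per 1000000.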

How the data were processed

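PolyA RNA of 12 libraries was analysed as deposited. The authors assigned reads to genes of the FAST DB annotation and divided the counts by DESeq2 size factors, in a table of the 9 PANC-1 libraries and another of the 3 HPAF-II libraries; these deposited values are of the unit signal. The submitters' processing notes name STAR 2.7.5a, SAMtools, Picard, FastQC and DESeq2 with hg38. The study's list of resources names featureCounts, and another version of STAR, without saying for which data. Whether it made these tables, and how strand and read pairs were handled, is not given in the sources used here. Values were whole multiples of a step in each library (tolerance 0.01), and among values under 30 steps at least 82.1% were multiples of 3, so that a step is not a fragment and the fragment depth is unknown. No depth interval is given for that reason.

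Genes with a mean of at least 10 over the PANC-1 libraries (22544) were tested together with limma 3.58.1 in R 4.3.3 (group means, mean-variance trend) on log2(normalized count + 1), with Benjamini-Hochberg adjustment over all genes and a threshold of 0.05. The script was tested on simulated data. Between lines, values were rescaled to 1000000 per library and compared as ratios of means (pseudocount 0.01) over genes with a mean of at least 10 in either line. Exon lengths, strands and coding ends come from GENCODE on GRCh38, and gene positions from the tables. Ratios were tested by exact two-sided permutation with scipy 1.17.1, with Python 3.11.15, pandas 2.3.3 and numpy 2.4.6, and drawn with matplotlib 3.10.9.

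All members and both knockdown targets are named. From each related list up to 3 genes per comparison are named, those with the largest change among the called with a mean of at least 50 (between lines, the largest ratio). Other genes were named after their values were seen, where a list is accounted for in full. The members and lists were chosen with earlier results of these data known. Alternatives covered pseudocounts, filters, 2 rescalings, smaller fits, a replicate block, no trend, a 1.5-fold minimum and leaving out each library. The rescaling to equal totals and the mean of log2 values were chosen after seeing the data. Of the markers and coding ends examined, 1 of each is not reported here.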

Additional observations from a re-analysis of the deposited data

Results flagged for a closer look

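NES, SYNM and LMNB2 differed between the 2 knockdowns, by the direct comparison of siQKI with siRBFOX2 in limma. NES was 0.33 higher in siQKI on the log2 scale, SYNM was lower (-0.39), and LMNB2 was 0.12 higher. For NES and SYNM the difference was past the threshold in each of 18 refits, whereas that of LMNB2 was lost in 4 of them.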

How the results depend on the processing

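The folds of the 6 expressed members were refitted under each alternative, giving 305 values with the direction and call of the main fit, 10 that lost the call, 4 that gained it and 5 of the opposite sign. Those of opposite sign were VIM in siRBFOX2 with equal library totals (0.0037) and LMNB1 between the knockdowns (0.0267 with upper-quartile rescaling, 0.000478 with equal totals, and -0.0112 to 0.00931 when 1 library was left out), and none of them was called. With equal library totals 1 member was called in siQKI instead of 3. With a minimum of 1.5-fold, 0 members were called in any PANC-1 comparison. Over the related lists 6 genes remained past both limits in siQKI, 2 in siRBFOX2 and 1 between the knockdowns. Of all genes tested, 9.03%, 5.71% and 4.33% remained past both limits in these comparisons. Without the mean-variance trend 17 related genes differed between the knockdowns instead of 27. Called related genes split as 10 higher and 22 lower in siQKI, and as 12 and 17 with upper-quartile rescaling. The cause of these changes was not tested.

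Leaving out 1 PANC-1 library gave 2 to 3 called members in siQKI, 4 in siRBFOX2 and 2 to 4 between the knockdowns. Between the lines 5 members were at least 2-fold apart in every alternative, DES and SYNM among them through the filter on low values.

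Replicate numbers did not pair the samples: deviations of same-numbered libraries from their group means correlated at r = -0.0325 to 0.0235, and others at -0.0333 to 0.0384. With the replicate block, the counts of called members were 3, 4 and 3 as without it, and the related genes numbered 34, 34 and 24.

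With 3 libraries per group, small differences such as those of LMNB1 lie near the detection limit, and fragment depth is unknown.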
